A study of Gasterosteus aculeatus with 9 samples.

Results

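The gills of wild Gasterosteus aculeatus from station C, the most saline site of a freshwater salinization study, were compared with the gills of fish from the reference station B. The comparison holds 6 of the 9 fish of the series, 3 labelled station B and 3 labelled station C, and each library is labelled as the gills of 1 fish. The labels give a chloride concentration of 12.912 mg/L for station B and 32 mg/L for station C. Both groups were caught by electrofishing in streams of the Boye catchment, killed with an overdose of tricaine and sampled for bulk RNA-seq. Each chloride level was sampled in a single stream, so that chloride cannot be told apart from anything else that differs between the streams. Neither sex nor age nor size of the fish is given in the sources used here.

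The gill of a freshwater fish loses salt by diffusion and takes it up again through ionocytes, epithelial cells that are rich in mitochondria and in the basolateral sodium-potassium ATPase. Uptake at the apical side is known to use the sodium-chloride cotransporter, sodium-proton exchangers coupled to the ammonia channels of the Rh family, and proton pumps, with carbonic anhydrase and bicarbonate cotransporters closing the circuit. Claudins set the leak between the cells, mucous cells cover the surface, and leukocytes patrol the lamellae. Seawater gills secrete chloride instead, through the basolateral cotransporter NKCC1 and the channel CFTR.

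Transcripts of the de novo assembly carry the names of similar Swiss-Prot proteins. Estimated counts were summed over all transcripts whose first match had the same entry name, which gave 10495 names from 43772 of the 98643 transcripts. A name such as S12A3 can therefore join paralogs, isoforms and alleles. An assembled gene, the group under which the assembly places related transcripts, can in turn hold transcripts with other names. Its sum then includes counts of another protein name. Levels are given as read counts scaled to library size with TMM factors (CPM), in the order replicate 1, 2, 3 of a station, and differences as log2 fold changes of station C over station B with a standard error (SE) from the fit. Total counts ran from 32417172 to 38806347 at station B and from 35003957 to 46214540 at station C.

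The library labelled station C replicate 2 stood apart from all other fish and went against its gill label. Liver markers, 33 names of plasma proteins and hepatic enzymes, took 8.36% of its counts and between 0.0445% and 0.0688% of the counts of the other 8 fish of the series. The carrier of plasma iron, transferrin (TRFE), stood at 45058 CPM in this library and between 2.83 and 10.1 CPM in the other 5 compared. Several gill markers were nearly absent from it. FOXI1, the transcription factor that specifies ionocytes, was at 0.282 CPM against 132 to 287 CPM elsewhere, and the desmosomal cadherin DSG2 was at 1.80 CPM against 721 to 919 CPM. Both were chosen after their values had been seen. The ionocyte list took 0.0445% of its counts, against 0.576% to 0.893% in the other 5 fish, and the mucous cell list 0.00157%, against 0.0754% to 0.190%. The gill epithelium list was reduced less, at 0.214% against 0.960% to 1.35%. The TMM factor of this library was 0.594, against 1.06 to 1.16 in the other 5, which raises its CPM relative to theirs. Its keratin K1C19 stood at 24.7 CPM, against 6.84 to 19.3 CPM in the other 5. On CPM of all counts without TMM factors (plain CPM), K1C19 stood at 12.5 in this library and was not highest in it. Station B had 10.8 to 18.5, and replicates 1 and 3 of station C had 6.65 and 9.33. Replicates 1 and 3 of station C kept the gill markers but exceeded station B in the share of the gut and pancreas list (0.0342% and 0.0926% against 0.00487% to 0.0152%). This came through the trypsin name TRY2, at 299.8 and 879 CPM against 0.0845, 91.0 and 0.353 CPM. Without replicate 2, 1 of 5 tested names of that list was higher and 4 were lower, with a median log2 fold change of -0.04. TRY4, a trypsin name outside the list, was lower (DESeq2 log2 fold change -10.57 without replicate 2 and -9.15 with it). The rank correlation of replicate 2 with the other 5 libraries was 0.741 to 0.756, while those 5 correlated at 0.974 to 0.980 with each other. Every difference is therefore given with this library (6 fish) and without it (5 fish, 3 of station B and 2 of station C).

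**Figure D1:**
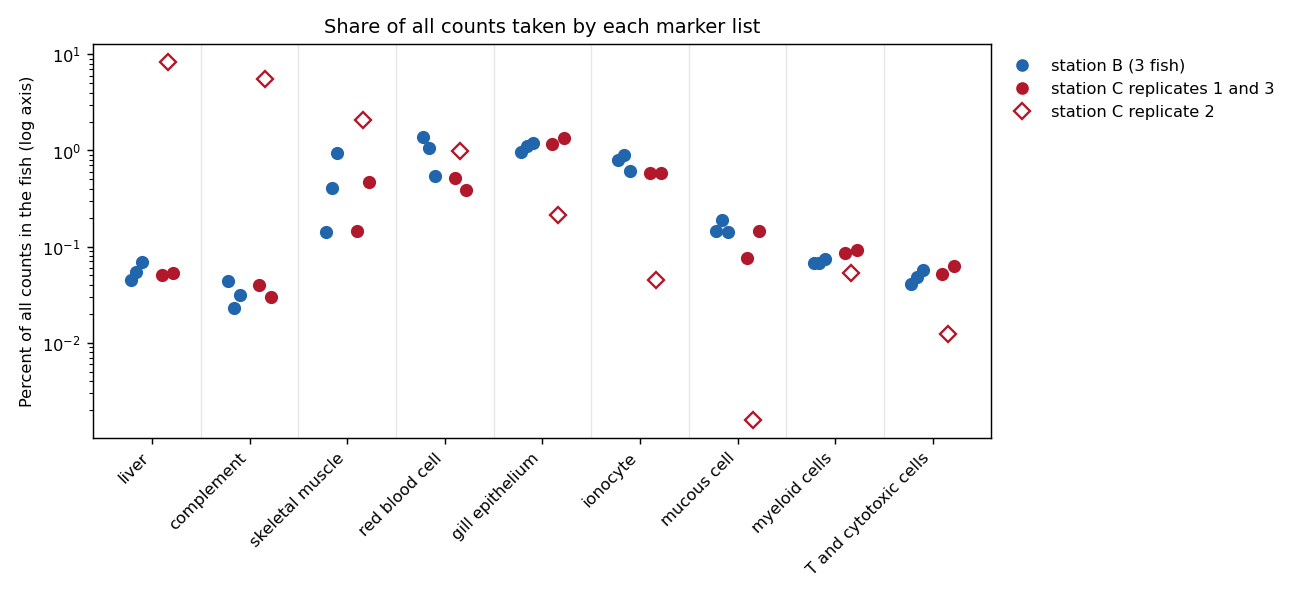
Share of all counts (percent, log axis) taken by 9 marker lists in each of the 6 fish; filled circles are fish of station B (blue) and replicates 1 and 3 of station C (red), and the open diamond is station C replicate 2. The diamond lies at 8.36% for liver, above all other fish, and at 0.00157% for mucous cells, below all other fish.

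No name passed the test in either comparison. Among 9023 names tested with 6 fish, edgeR's quasi-likelihood test with Benjamini-Hochberg adjustment called 0 (0% in either direction), and the smallest adjusted p was 0.774. Among 9217 names tested with 5 fish it also called 0 (0% in either direction), with a smallest adjusted p of 0.462. At an unadjusted p under 0.05, with 6 fish, 241 names were higher at station C (2.67%) and 103 lower (1.14%), and with 5 fish 387 were higher (4.2%) and 354 lower (3.84%). Counts of list members at that level below are to be read beside these shares over all names. Scaled by total counts without TMM factors, an alternative added after seeing the data, the split at that level was 174 higher and 39 lower with 6 fish, and 806 and 171 with 5. DESeq2, the tool of the study, run here on counts summed per name, called 9 names higher (0.0997%) and 3 lower (0.0332%) with 6 fish, and 21 higher (0.228%) and 21 lower (0.228%) with 5 fish, of which 10 names were shared. The study reported many more genes for these stations and does not describe such sums, so that the counts are not like for like. The robust quasi-likelihood test called 0 in both, and limma voom with sample weights called 1 with 6 fish and 0 with 5. Higher and lower below therefore describe levels, and the names singled out are those with the smallest unadjusted p whose fish did not overlap, none of them called by the main test. Ranges of station C and station B did not overlap for 657 names higher (7.28%) and 598 lower (6.63%) with 6 fish, and for 1395 (15.1%) and 1307 (14.2%) with 5. These ranges are on the TMM scale, and with 6 fish some names overlapped on plain CPM. Fewer cells of a type and less RNA per cell cannot be told apart in these whole-gill samples.

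Adding the library rich in liver transcripts changed which names led. Of the 9021 names tested both ways, 68.4% had the same sign, and 194 had an unadjusted p under 0.05 in the same direction both times. Among the 241 names higher with 6 fish at that level, 93 were over 4 times higher in station C replicate 2 than in every other fish. These included TRFE, with a log2 fold change of 11.40 (SE 4.35) with 6 fish and -0.34 (SE 0.62) with 5. The plasma protein fetuin-B (FETUB) likewise went from 11.38 (SE 4.40) to -0.70 (SE 0.63). Of 15 liver names tested, 7 were higher with 6 fish at an unadjusted p under 0.05 and none with 5, where 2 were lower. CO9, the pore-forming complement component made by liver, and CP2K1, a fish cytochrome P450, stood at 7146 and 1736 CPM in this library and at no more than 1.94 CPM in any other of the 6.

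**Figure D2:**
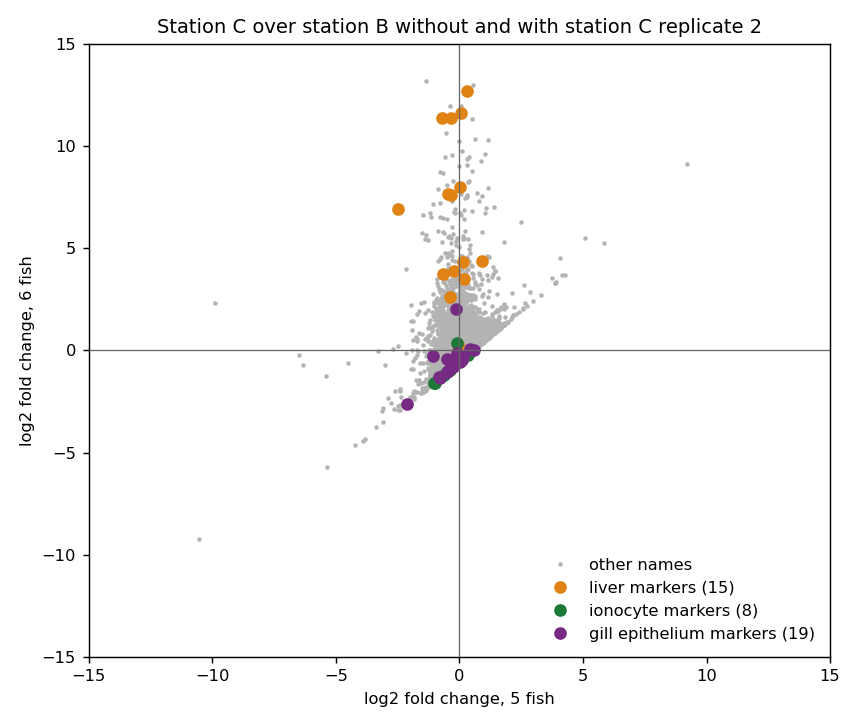
log2 fold change of station C over station B with 6 fish (vertical axis) against that with 5 fish (horizontal axis), 1 point for each of the 9021 names tested both ways. The 15 liver markers (orange) spread upward with 6 fish and lie around 0 with 5, while the 8 ionocyte (green) and 19 gill epithelium markers (purple) lie mostly at or below 0 with 6 fish.

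Caspase-9 (CASP9), the initiator protease of the mitochondrial death pathway, was the name lower at station C with the smallest p in both comparisons. It stood at 6.22, 4.20 and 6.53 CPM at station B and at 0.292, 0.0564 and 0.305 CPM at station C, where the 3 fish had 10, 1 and 14 counts. All fish of station C lay below all fish of station B, and the log2 fold change was -4.61 (SE 0.66) with 6 fish and -4.23 (SE 0.42) with 5. DESeq2 called it in both, with an adjusted p of 1.7e-14 and 1.09e-14. The name rests on 1 transcript of an assembled gene that holds 1 more, which is named DJC16. Both transcripts together, a sum that is not of CASP9 alone, stood at 9.35, 7.62 and 9.03 CPM at station B and at 0.439, 0.451 and 0.609 CPM at station C.

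Immunoglobulin heavy chain names were higher at station C. Immunoglobulin heavy chain M (IGM) stood at 392, 438 and 422 CPM at station B and at 664, 1071 and 817 CPM at station C. Its log2 fold change was 1.03 (SE 0.27) with 6 fish, where DESeq2 gave an adjusted p of 0.0364, and 0.82 (SE 0.15) with 5. A heavy chain variable segment (HV348) followed, at 23.3, 30.3 and 16.2 CPM against 58.1, 52.6 and 43.9 CPM. On plain CPM its value in replicate 2 lay inside station B (26.7 against 15.6 to 27.4). CD79B, the signalling partner of the B cell receptor, was at 13.3, 8.64 and 13.9 CPM at station B and at 18.9, 73.4 and 19.5 CPM at station C, with its highest value in replicate 2. The receptor that carries polymeric immunoglobulin across epithelium (PIGR) was higher only without that library, at 7.04, 6.39 and 8.71 CPM against 20.5 and 12.3 CPM in replicates 1 and 3 and 1.296 CPM in replicate 2. Of 6 tested names of the B cell list, 2 were higher and none lower with 5 fish at an unadjusted p under 0.05. The share of counts of that list did not follow, at 0.0150%, 0.114% and 0.0174% at station B against 0.0188% and 0.0237% in replicates 1 and 3 of station C, since the B cell lectin CD22 stood at 1137 CPM in station B replicate 2 and at 36.5 to 45.8 CPM in the other 4 of these fish.

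Several other leukocyte names were higher as well. The receptor of the complement fragment C3a (C3AR) stood at 3.38, 7.17 and 5.88 CPM at station B and at 15.2, 25.1 and 11.9 CPM at station C. The 7 transcripts of its assembled gene, which also carries the name TMM68, overlapped, at 22.1 to 33.6 CPM against 33.4 to 45.6 CPM. The leukocyte integrin ITAD and DOCK2, which drives leukocyte migration, did not overlap between the stations on the TMM scale either, with log2 fold changes of 1.28 (SE 0.34) and 0.53 (SE 0.14). On plain CPM DOCK2 in replicate 2 lay below station B (44.4 against 49.6 to 61.7). For DOCK2 the whole assembled gene, which holds 9 transcripts, overlapped only through replicate 2, at 171 to 189 CPM against 197, 162 and 223 CPM. C1QB and C1QC, chains of the complement recognition protein made by macrophages, were at most 84.4 and 46.03 CPM at station B and at least 90.9 and 53.9 CPM at station C. Granzyme A (GRAA), a protease of cytotoxic lymphocytes, was at 26.7, 33.4 and 30.3 CPM against 37.2, 45.9 and 44.97 CPM. On plain CPM GRAA in replicate 2 was at 23.3, below the 24.4 to 30.2 of station B. The assembled gene with 55.0% of the GRAA counts overlapped only through replicate 2, at 15.2 to 19.6 CPM against 23.3, 2.82 and 29.1 CPM. With 5 fish the T cell kinase ZAP70 and the macrophage pore protein MPEG1 were higher as well, by 0.61 (SE 0.22) and 0.62 (SE 0.15), but in replicate 2 both lay below the middle fish of station B. The T and cytotoxic cell list took 0.0408% to 0.0568% of all counts at station B and 0.0516% and 0.0634% in replicates 1 and 3 of station C, and the myeloid list 0.0667% to 0.0750% and 0.0859% and 0.0912%. In replicate 2 these lists took 0.0122% and 0.0530%, below all fish of station B. The part of leukocyte numbers in these levels was not tested.

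RNA-binding proteins were among the other names higher in all 6 fish on the TMM scale. HNRPK, which binds nuclear pre-mRNA, stood at 61.0, 65.3 and 74.2 CPM at station B and at 118, 120.4 and 177 CPM at station C, a log2 fold change of 1.05 (SE 0.22) with 6 fish and 1.14 (SE 0.20) with 5, and DESeq2 called it both times. The splicing factors PR38B and SRSF4 were also higher without overlap, with log2 fold changes of 0.58 (SE 0.15) and 0.53 (SE 0.20) with 6 fish and 0.50 (SE 0.10) and 0.39 (SE 0.13) with 5. On plain CPM replicate 2 lay inside station B for HNRPK (61.0 against 55.8 to 71.2) and SRSF4 (155.8 against 143 to 178). For PR38B it lay below all fish of station B (64.5 against 65.2 to 77.5). Of the list of SR splicing factors 2 of 10 tested were higher with 6 fish and 2 of 11 with 5 (SRS1B and SRSF4), none lower, although the assembled gene with most counts of SRS1B overlapped with 6 fish (163 to 175 CPM against 210, 161 and 247 CPM). ACAD9, a mitochondrial acyl-CoA dehydrogenase that helps assemble complex I, stood at 0.845, 1.13 and 1.38 CPM against 5.204, 8.29 and 11.1 CPM, and its assembled gene has no other transcript.

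Several names were only part of a larger assembled gene. Over all its transcripts, some of them with other names, the difference was smaller or the stations overlapped. The zinc finger name Z652A stood at 0.253, 0.854 and 0.706 CPM at station B and at 15.1, 21.98 and 5.33 CPM at station C, yet the 5 transcripts of its assembled gene together gave 27.1 to 32.0 CPM and 25.8 to 78.5 CPM, which overlap. FBX7, an F-box protein that selects targets for ubiquitination, gave 1.02 to 2.31 CPM against 4.80 to 7.89 CPM. The 13 transcripts of its assembled gene, which also carries the name K0930, gave 95.6 to 102 CPM against 119, 79.3 and 105 CPM. They overlapped only through replicate 2, and most of that sum lay outside FBX7. The nuclear receptor NR2C1, named after its values had been seen, had no count in any fish of station B and 1.67, 2.25 and 2.52 CPM at station C, at least 23.4-fold higher than a limit of 3 counts per station B library. It was the single name that limma voom called, with an adjusted p of 0.0206, and its 8 transcripts together stood at 41.6 to 45.7 CPM at station B and 46.3 to 52.8 CPM at station C. TCP11, known from sperm, differed in the same way in its 2 transcripts (4.48 to 5.6 against 10.6 to 20.2 CPM) and less so in the 5 transcripts of the gene (32.6 to 51.7 against 59.7 to 68.6 CPM). NIT1, an amidase, was lower at station C in its 1 transcript, at 35.8, 36.6 and 38.4 CPM against 19.2, 24.3 and 15.2 CPM. Over the 3 transcripts of its assembled gene, which also carries the name PFD2, the stations overlapped only through replicate 2. These sums were 74.6 to 86.0 CPM against 64.5, 81.3 and 63.3 CPM.

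**Figure D3:**
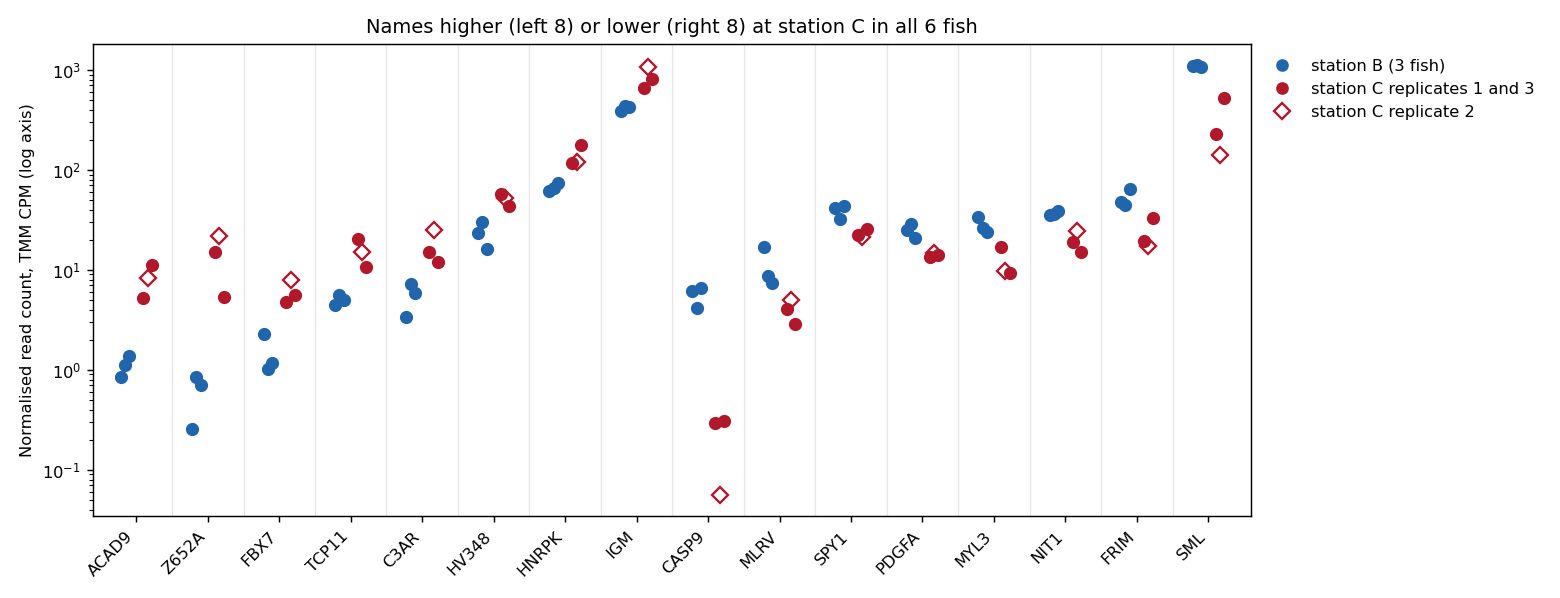
Normalised read count (TMM CPM, log axis) of 16 names in each of the 6 fish, the left 8 higher and the right 8 lower at station C; filled circles are station B (blue) and replicates 1 and 3 of station C (red), open diamonds station C replicate 2. For none of the 16 do the fish of the stations overlap, and CASP9 lies at 0.305 CPM or below in all 3 fish of station C.

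Of the leading names lower at station C in all 6 fish, the highest read count belonged to SML. This lectin name is not in the mucous cell list. It stood at 1089, 1110.1 and 1060.0 CPM at station B and at 229, 142 and 525 CPM at station C, with log2 fold changes of -1.86 (SE 0.53) with 6 fish and -1.53 (SE 0.37) with 5. The station B fish lay within a narrow range and all station C fish below it. Of the mucous cell list, 3 names were lower too. The gel-forming mucin MUC2L was at 839.8, 1023 and 688 CPM against 327 and 606 CPM in replicates 1 and 3 of station C and 3.95 CPM in replicate 2. SPDEF, the transcription factor of goblet cells, was at 30.6 to 42.9 CPM against 24.6 and 27.0 CPM, and the secretory granule lectin ZG16 at 12.8 to 24.5 CPM against 7.66 and 2.46 CPM. With 5 fish 3 of 7 tested names of the mucous cell list were lower and none higher at an unadjusted p under 0.05, and the median log2 fold change was -0.58, against -0.02 over all names tested. Leaving out fish changed that count to between 0 (without station B replicate 1) and 4 (without station B replicate 3, or without station C replicate 3). The share of counts of the list overlapped, at 0.141% to 0.190% at station B against 0.0754% and 0.147% in replicates 1 and 3 of station C, as did its member AGR2, a folding factor of mucins (410 to 643 CPM against 182 and 637 CPM).

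Other leading names lower without overlap, in no list together, included growth factors. Platelet-derived growth factor A (PDGFA) stood at 25.3, 28.7 and 20.8 CPM at station B and at 13.6, 14.9 and 14.1 CPM at station C, a log2 fold change of -0.81 (SE 0.19) with 6 fish and -0.85 (SE 0.19) with 5. Sprouty (SPY1), an inhibitor of receptor tyrosine kinase signalling, and the inhibin subunit INHBB had log2 fold changes of -0.76 (SE 0.19) and -0.70 (SE 0.20) with 6 fish. The middle subunit of ferritin (FRIM), the iron store of the cytosol, was at 47.3, 44.7 and 64.6 CPM against 19.6, 17.5 and 32.7 CPM. The methionine sulfoxide reductase MSB1A, which repairs oxidized methionine, was at 73.4 to 90.2 CPM against 45.4 to 54.0 CPM, and fumarase (FUMH), an enzyme of the citrate cycle, at 106 to 126 CPM against 63.4 to 87.5 CPM. Muscle myosin light chains MYL3 and MLRV, neither of them in the skeletal muscle list, were lower in every fish, by -1.23 (SE 0.31) and -1.48 (SE 0.43). In replicate 2 they stood at 9.81 and 4.96 CPM. The skeletal muscle list took 0.142% to 0.943% of the counts at station B, 0.146% and 0.466% in replicates 1 and 3 of station C and 2.09% in replicate 2. Its 27 tested names all lay below 0 with 5 fish, none at an unadjusted p under 0.05, and their median moved from -0.76 to 0.05 without station B replicate 3.

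Among the ion transporters, the sodium-chloride cotransporter (S12A3) differed most clearly. It stood at 2489, 2662 and 2153 CPM at station B, at 1150.1 and 1276 CPM in replicates 1 and 3 of station C, and at 13.5 CPM in replicate 2. Replicates 1 and 3 of station C thus lay at about the same level, below all fish of station B, and the log2 fold change was -1.01 (SE 0.16, unadjusted p = 0.000998) with 5 fish and -1.58 (SE 1.33, unadjusted p = 0.282) with 6. DESeq2 called it with 5 fish (adjusted p = 6.54e-09) and not with 6 (adjusted p = 0.77). Of its counts 99.8% came from 1 assembled gene of 7 transcripts. It was the only 1 of 6 tested SLC12 cotransporters at an unadjusted p under 0.05 with 5 fish. The cotransporter of the secreting ionocyte, NKCC1 (S12A2), lay on the other side, at 96.4, 108 and 128 CPM against 149.6 and 136 CPM (0.36, SE 0.15), while in replicate 2 it was at 1.41 CPM.

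The sodium-bicarbonate cotransporter (S4A4), which carries bicarbonate across the basolateral membrane, showed the same order as S12A3. It stood at 529, 463 and 462 CPM at station B and at 218 and 296 CPM in replicates 1 and 3 of station C, with 21.5 CPM in replicate 2. Its log2 fold change was -0.92 (SE 0.18) with 5 fish and -1.44 (SE 0.86) with 6. None of the other 9 tested names of bicarbonate and anion exchangers had an unadjusted p under 0.05 with 5 fish.

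The other names of ionocytes differed less clearly. The sodium pump subunit AT1A1 was at 3534, 3022 and 2293 CPM against 2924 and 2799 CPM, a log2 fold change of -0.05 (SE 0.21) with 5 fish, and the beta subunit AT233 overlapped between stations (2095 to 5637 CPM against 2072 and 2508 CPM) only through its lowest fish. FOXI1 was at 287, 214 and 132 CPM against 161 and 161 CPM. The sodium-proton exchanger SL9A3 spread from 259.8 to 914 CPM at station B, and the 445 and 419 CPM of replicates 1 and 3 of station C lay inside that range. The ammonia channels RHCG and RHBG gave log2 fold changes of -1.01 (SE 0.41) and -0.17 (SE 0.23) with 5 fish, with RHCG at 1309.7, 2653 and 1161 CPM against 949 and 761 CPM, without overlap. The related name RHCG1 overlapped, at 955, 2106 and 341 CPM against 530 and 483 CPM (-1.17, SE 0.73 with 5 fish). All 5 tested names of ammonia and urea transport lay below 0 with 5 fish (median -0.77), none at an unadjusted p under 0.05. Carbonic anhydrase CAH4, an enzyme anchored at the cell surface, was decided by 1 fish: 837 to 1174 CPM at station B, 740.4 CPM in replicate 3 of station C and 51.8 CPM in replicate 1. Of the 6 tested sodium pump names only the regulator FXYD6 was lower with 5 fish at an unadjusted p under 0.05. The ionocyte list took 0.613% to 0.893% of counts at station B and 0.584% and 0.576% in replicates 1 and 3 of station C, below all 3. Of 9 tested ionocyte names 1 was lower and none higher with 5 fish at an unadjusted p under 0.05, with a median of -0.18, and that count reached 4 of 8 without station B replicate 3.

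A few proton pump subunits were higher. VATA, the catalytic subunit of the vacuolar ATPase, was at 84.2, 89.2 and 82.7 CPM at station B and at 126 and 106 CPM in replicates 1 and 3 of station C, with 50.4 CPM in replicate 2 (0.44, SE 0.11 with 5 fish; 0.14, SE 0.35 with 6). The membrane subunits VPP3 and VATO were higher by 0.39 (SE 0.09) and 0.41 (SE 0.14) with 5 fish. These 3 of 15 tested subunits were higher and none lower with 5 fish at an unadjusted p under 0.05, beside 0 of 14 in either direction with 6. Of all names, 4.2% were higher at that level with 5 fish. Of the 15 subunits 5 lay below 0, the median was 0.12, and the count ranged from 1 to 3 when fish were left out in turn, with 1 without station C replicate 1.

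**Figure D4:**
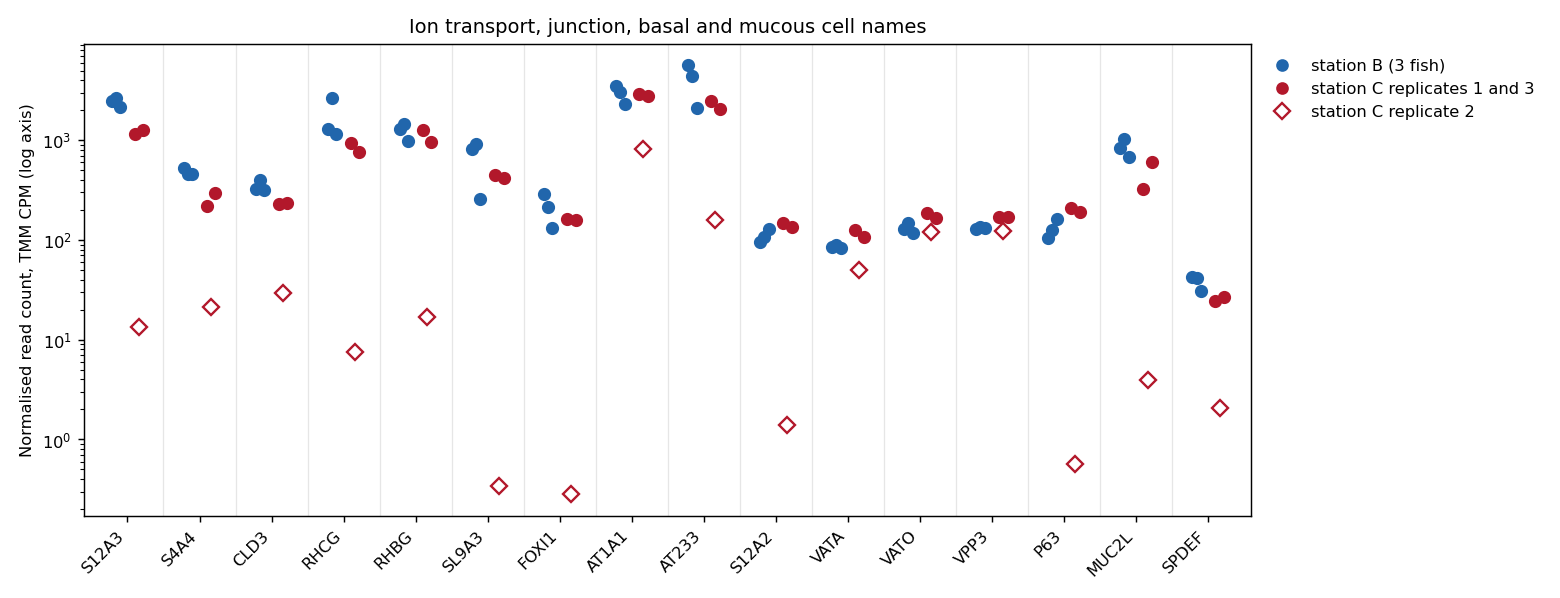
Normalised read count (TMM CPM, log axis) of 16 names of ion transport, junctions, basal and mucous cells in each of the 6 fish; filled circles are station B (blue) and replicates 1 and 3 of station C (red), open diamonds station C replicate 2. The diamond is the lowest point for every name but VATO (where 1 fish of station B is lower), and for S12A3 replicates 1 and 3 of station C lie at 1150.1 and 1276 CPM, below the 2153 to 2662 CPM of station B.

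Claudins and water channels tended downward without replicate 2. CLD4, the claudin with the highest read count, was at 2274, 2755 and 2648 CPM against 1944 and 2437 CPM (-0.23, SE 0.17). CLD3 was at 326, 404 and 314 CPM against 231 and 236 CPM, with 29.6 CPM in replicate 2, and CLD17 at 35.0 to 65.7 CPM against 27.8 and 28.4 CPM, with no count in replicate 2. CLDY, at 52.6 to 60.6 CPM against 44.998 and 43.6 CPM, shares an assembled gene of 4 transcripts with most of CLD3. Of 21 tested names of the claudin and tight junction list these 3 were lower and 1 higher (the scaffold ZO1) with 5 fish at an unadjusted p under 0.05, and the count of lower names was 0 without station C replicate 1 or without station C replicate 3, and 5 without station B replicate 3. Among all names 3.84% were lower and 4.2% higher at that level with 5 fish. With 6 fish CLD25 was lower and CLD14 higher at that level. The aquaporins AQP1 and AQP11 were at 23.6 to 30.9 CPM against 19.5 and 21.4 CPM and at 12.8 to 15.7 CPM against 8.07 and 8.25 CPM, but at 148 and 44.0 CPM in replicate 2, so that both were above 0 with 6 fish (1.17, SE 0.85 and 0.48, SE 0.73). All 7 tested aquaporins lay below 0 with 5 fish, and AQP1 and AQP11 were the 2 lower at an unadjusted p under 0.05, a count that was 5 without station B replicate 3 and 1 without any other single fish. The name AQP8 has to be left aside among them, since its single transcript also matches a haemoglobin alpha chain and, like the haemoglobin chain HBB2 (13388, 10393 and 4872 CPM against 4391, 18175 and 3241 CPM), it was lowest in station C replicate 3. With TMM factors station C replicate 2 was highest for both names, and on plain CPM station B replicate 1 was. There AQP8 was at 8528 and HBB2 at 12252, against 5944 and 9212 in station C replicate 2. Red cell names took 0.541% to 1.37% of counts at station B and 0.515%, 0.978% and 0.392% at station C.

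Osmolyte genes and, summed per name, the candidates of the study moved little. Aldose reductase (ALDR), which makes sorbitol, was at 74.8, 87.0 and 82.0 CPM at station B and at 96.6 and 113 CPM in replicates 1 and 3 of station C, though the assembled gene with 92.1% of its counts overlapped (74.2 to 86.4 CPM against 78.2 and 98.4 CPM), and T22D3, a leucine zipper protein induced by glucocorticoids, was at 70.5 to 96.4 CPM against 107, 173 and 109 CPM, higher in all fish on the TMM scale. On plain CPM T22D3 in replicate 2 lay inside station B (87.5 against 63.7 to 88.2). ALDR and T22D3 were 2 of 10 tested osmolyte names, with no name lower at an unadjusted p under 0.05, and the taurine transporter SC6A6 gave 0.00 (SE 0.15) with 5 fish. The study lists 12 candidates related to osmoregulation, which it chose on these same samples, so that their directions are not independent evidence. It printed larger log2 fold changes for all 12 and does not describe summing counts per protein name, so that the values are not like for like. By qPCR the study also reported a positive direction for selected upregulated genes, among them PTPN3, NEDD4, ANO9, PTPN6 and SLC9B2. Summed per name, SC31A and SC24B, both of the coat of transport vesicles, were higher and the S-adenosylhomocysteine hydrolase-like SAHH2 was lower at an unadjusted p under 0.05, with 6 and with 5 fish. Under total-count scaling 0 of the 12 were at that level with 6 fish, and 5 were higher and 0 lower with 5. SC31A stood at 33.3, 31.7 and 29.1 CPM against 43.4, 37.5 and 42.5 CPM, and SAHH2 at 277, 243 and 253 CPM against 167, 159 and 218 CPM. SAHH3, from the same assembled gene as SAHH2, was lower as well, at 263 to 280.1 CPM against 155, 59.5 and 162 CPM. The other 9 had log2 fold changes between -0.30 (ANO9) and 0.81 (SL9B2) with 5 fish. Among them NEDD4, TRPM7, IP3KB, PTN3, ANO9 and SO5A1 overlapped between the stations with 6 and with 5 fish, and SL9B2 with 6. SC31A, SC24B, PTN3, PTN6 and SL9B2 had the direction printed in the study, with 6 and with 5 fish. NEDD4 and ANO9, printed as higher, lay below 0 both times (-0.23 and -0.30 with 5 fish). TRPM7, IP3KB (ITPKB) and SO5A1 (SLCO5A1), printed as lower, lay above 0 with 5 fish (0.06, 0.17 and 0.06) and below 0 with 6. None of these opposite names had an unadjusted p under 0.05. The study also has AHCYL1 (SAHH2) higher and AKAP13 (AKP13) lower, opposite to both comparisons here. AKP13 was at 198, 217 and 231 CPM against 265, 309 and 267 CPM. On plain CPM it was at 157 in replicate 2, below the 182 to 222 of station B. The assembled gene with 60.8% of its counts overlapped only through replicate 2 (124 to 148 CPM against 171, 104 and 170 CPM).

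The vesicle coat itself, COPII, which carries cargo out of the endoplasmic reticulum, had 4 of 10 tested names higher and none lower with 5 fish at an unadjusted p under 0.05 (SC31A, SC24B, SC24C and TFG), and 2 with 6 fish. Under total-count scaling these counts were 5 and 0. Over all names 4.2% were higher at that level with 5 fish and 2.67% with 6. SC24B was at 31.4, 31.5 and 32.8 CPM at station B and 38.2, 66.4 and 42.3 CPM at station C. SC24C was at 96.8 to 104 CPM against 112 to 143 CPM. On plain CPM it was at 56.8 in replicate 2, below the 87.4 to 98.6 of station B. The median of the list was 0.25 with 5 fish and 0.11 with 6, and the count of higher names was 1 or 2 when any of the 5 fish was left out.

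Interferon-stimulated names were higher with 5 fish, mostly through replicate 1 of station C. The transcription factor IRF1 was at 356, 501 and 479 CPM at station B and at 741 and 712 CPM in replicates 1 and 3 of station C, with 148 CPM in replicate 2, a log2 fold change of 0.70 (SE 0.19) with 5 fish and 0.26 (SE 0.61) with 6. The RNA sensor IFIH1 was at 181 to 192 CPM against 264 and 222 CPM, and IRF3, which switches on interferon, at 26.2 to 37.2 CPM against 74.0 and 41.8 CPM. In all, 5 of 12 tested names were higher and none lower with 5 fish at an unadjusted p under 0.05, and 0 of 12 with 6. The share of all names higher at that level was 4.2% with 5 fish. The antiviral GTPase MX, chosen after its values had been seen, reached 636 CPM in replicate 1 but 170.2 CPM in replicate 3, inside the 107 to 258 CPM of station B. Without replicate 1 the count was 0, without replicate 3 it was 7, and in the first case the median of the list moved from 0.52 to 0.16. An immune GTPase, GIMA4, was decided by the same fish, with 6188 CPM there against 191 to 247 CPM at station B and 203 CPM in replicate 3. GIMA9 of the same family was lower in every fish of station C, at 80.0 to 85.3 CPM against 49.1, 25.2 and 54.5 CPM, although the assembled gene with 42.1% of its counts overlapped (26.5 to 44.0 CPM against 18.98, 0.225 and 32.1 CPM).

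Several names of dividing cells were higher, most clearly without replicate 2. The spindle checkpoint kinase BUB1 stood at 21.1, 17.1 and 16.4 CPM at station B and at 25.96, 26.3 and 36.4 CPM at station C, with log2 fold changes of 0.70 (SE 0.22) with 6 fish and 0.77 (SE 0.21) with 5. The mitotic kinesins KIF11 and CENPE were also higher in all fish on the TMM scale, at most 32.8 and 7.07 CPM at station B and at least 36.7 and 8.45 CPM at station C. On plain CPM replicate 2 lay inside station B for KIF11 (18.6 against 16.7 to 30.0) and CENPE (4.29 against 3.90 to 6.47). For BUB1 it lay below station B (13.3 against 15.4 to 19.4). With 5 fish 7 of 18 tested names were higher (also CCNA2, CCNB2, MCM5 and RIR2, which are cyclins and replication proteins) and none lower at an unadjusted p under 0.05, with a median of 0.49, beside 4.2% of all names higher at that level. With 6 fish 3 of 17 were higher with a median of 0.22, and 0 under total-count scaling. The list took 0.0233% of the counts of replicate 2, against 0.0594% to 0.0733% at station B. With 5 fish the count of higher names was 0 without station C replicate 3, the fish with the highest level of each of these 7 names. The kinetochore protein CENPT was at 6.12 to 9.32 CPM against 16.7, 9.19 and 21.5 CPM. P63, which marks basal epithelial cells, was at 106, 126 and 162 CPM against 210.5 and 189 CPM, and nearly absent in replicate 2 (0.564 CPM). Of the 19 tested gill epithelium names P63 was higher and the adhesion molecule EPCAM and the keratin K1C19 were lower with 5 fish at that level.

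Immediate early genes, the transcripts that cells make within minutes of stimulation or handling, were lower. JUNB stood at 134, 129.9 and 77.1 CPM at station B and at 46.8, 15.2 and 58.4 CPM at station C, with log2 fold changes of -1.50 (SE 0.53) with 6 fish and -1.12 (SE 0.28) with 5. EGR1 was at 131, 116 and 40.6 CPM against 13.2, 15.2 and 38.7 CPM, so that the highest fish of station C came within 2 CPM of the lowest of station B. Its assembled gene, which also carries the name ZN438, overlapped through replicate 2 alone (87.2 to 181 CPM against 62.1, 96.2 and 84.6 CPM). KLF2, which also responds to blood flow in endothelium, was at 275 to 419 CPM against 191, 62.8 and 249 CPM. At an unadjusted p under 0.05, with 6 fish, 4 of 19 tested names were lower (CCN1, EGR1, IER2 and JUNB) and none higher, and with 5 fish 3 of 19 (EGR1, JUNB and KLF2), with medians of -1.03 and -0.64. Over all names 1.14% were lower at that level with 6 fish and 3.84% with 5. With 5 fish the count of lower names in the list was 0 without station C replicate 1 and 8 without station C replicate 3, and the time from capture to fixation is not given per fish.

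Most names of ribosomal proteins and of the respiratory chain were lower without replicate 2, by small amounts. RL6 stood at 2384, 2375 and 2904 CPM at station B and at 1865 and 1891 CPM in replicates 1 and 3 of station C, and RS3A at 1963, 2291 and 2512 CPM against 1638 and 1638 CPM. In replicate 2 they were at 4639 and 3467 CPM, above all other fish on the TMM scale. On plain CPM they were at 2351 and 1757 there, against 2145 to 2788 and 1797 to 2411 at station B. Of 84 tested ribosomal protein names 77 lay below 0 with 5 fish, 12 of them and none above at an unadjusted p under 0.05, with a median of -0.37. With 6 fish none of 82 passed that level in either direction and the median was 0.04, while limma voom and total-count scaling with 6 fish gave medians of -0.33 and -0.26, so that the direction depended on replicate 2 and on how it was scaled or weighted. Of 83 tested names of the respiratory chain and ATP synthase 73 lay below 0 with 5 fish, 12 of them and none above at that level, with a median of -0.39, against 0.09 and 0 of 76 with 6 (-0.40 with limma voom and -0.21 with total counts). As a share of all counts the respiratory chain overlapped, at 8.83% to 11.9% at station B against 9.74% and 10.4% in replicates 1 and 3 of station C. The complex I subunits NDUAC, NDUAD and NDUC2 led, with NDUAC at 108, 100.4 and 80.6 CPM against 61.8 and 61.2 CPM. Both counts depended on single fish: for the ribosomal proteins 0 without station C replicate 3, 2 without station B replicate 3 and 3 without station B replicate 2, and for the respiratory chain 1 without station C replicate 3, 6 without station B replicate 2 and 30 without station B replicate 3. Scaling by total counts in place of TMM, which moved the median of all names from -0.02 to 0.08 with 5 fish, left 76 and 69 of these names below 0 but only 1 and 9 at that level.

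**Figure D5:**
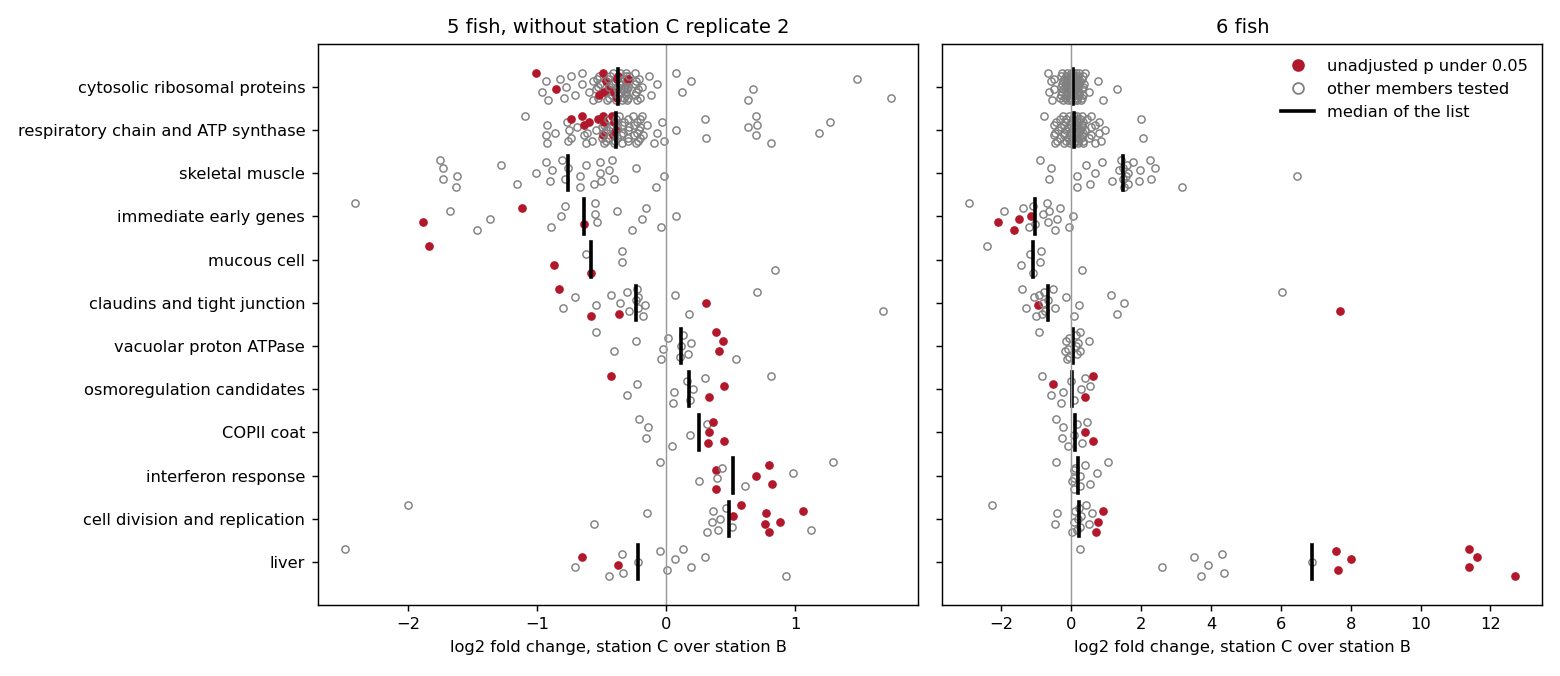
log2 fold change of station C over station B for the tested members of 12 gene lists, with 5 fish (left) and 6 fish (right, on a wider axis); red points have an unadjusted p under 0.05 and black bars are medians. The median of the ribosomal proteins lies at -0.37 on the left and 0.04 on the right, and that of the liver markers at -0.22 on the left and 6.90 on the right.

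Further names stood out only once replicate 2 was left out. The L-amino acid oxidase OXLA, a secreted antibacterial enzyme of fish mucus, had the smallest p of all names with 5 fish, at 26.4, 25.5 and 24.1 CPM against 62.6 and 56.1 CPM, with 20.5 CPM in replicate 2 (1.22, SE 0.12 with 5 fish; 0.87, SE 0.42 with 6). Phosphoserine aminotransferase (SERC), of serine synthesis, was at 18.0 to 20.3 CPM against 37.0 and 41.0 CPM, with 4.57 CPM in replicate 2. Deiodinase (IOD1), which converts thyroid hormone, was lower without replicate 2, at 85.0, 119 and 167 CPM against 35.0 and 40.2 CPM, while replicate 2 had 244 CPM. SNX8 of the endosome was lower in its 1 transcript (22.5 to 29.2 CPM against 12.3 and 10.4 CPM). Its assembled gene of 11 transcripts also carries the name TTYH3, and most of its counts lay outside SNX8. Over these transcripts the stations did not differ in that direction (189 to 190.0 CPM against 202 and 215 CPM). DESeq2 called OXLA, SERC, IOD1 and SNX8 with 5 fish and none of them with 6.

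Xenobiotic and antioxidant names gave few differences that held in both comparisons. CP1B1, a cytochrome P450 induced through the aryl hydrocarbon receptor, was lower in every fish of station C, at 92.1, 78.2 and 66.5 CPM against 60.0, 46.7 and 40.0 CPM (-0.69, SE 0.22 with 6 fish). The assembled gene with 75.8% of its counts overlapped through replicate 2 alone (131 to 182 CPM against 129, 139 and 106 CPM). With 5 fish 4 of 46 tested names of that list were lower (CP1B1, CP26C, GSTT1 and UD11) and none higher at an unadjusted p under 0.05, while with 6 fish 4 were higher and 1 lower. At that level 3.84% of all names were lower with 5 fish, and 2.67% were higher and 1.14% lower with 6. Among the antioxidant and metal defence names FRIM was the only one lower with 6 fish at an unadjusted p under 0.05. With 5 fish ferritin heavy chain FRIH (3006 to 5064 CPM against 2516 and 2453 CPM), FRIM and the lipid peroxidase GPX4 were lower and extracellular superoxide dismutase (SODE) was higher. GPX4 stood at 27.3 to 36.4 CPM in 5 fish and at 4547 CPM in replicate 2. Heat shock chaperones, hypoxia response, glycolysis and proteasome names had none at that level in either direction, with 6 or with 5 fish, of 15, 10, 14 and 42 tested with 5 fish.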

How the data were processed

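The authors trimmed the reads with Trimmomatic, assembled them de novo with Trinity, removed transcripts of low expression, annotated the rest with Trinotate and estimated counts per transcript with Salmon. The deposited values are these expected counts, without normalization between fish, and every fish was matched to its column by name. No genome build is involved, and no coordinates or sequences are given. Here the expected counts were rounded and summed per first Swiss-Prot entry name, which covered 84.4% to 91.1% of the counts of a fish, and transcripts without a name were not tested. Names passing filterByExpr were tested in R 4.3.3 with edgeR 4.0.16 (glmQLFit and glmQLFTest, TMM) on the 6 fish and on 5 fish without station C replicate 2, and counted as called with p adjusted after Benjamini and Hochberg no larger than 0.05 together with a fold change of more than 2. SEs are the absolute log2 fold change over the square root of F. DESeq2 1.42.0 and limma 3.58.1 served as alternatives. The fits were also run on simulated data of lower dispersion than the common dispersion of these fish (0.347 with 6 and 0.131 with 5). That run cannot show how many differences the fits miss here. A floor of 3 counts, 0.0649 to 0.0925 CPM of the compared libraries, covers counting error only. Members and lists were chosen with earlier results of these data known. Named genes are, per direction and comparison, up to 15 names with the smallest unadjusted p, a mean of at least 5 CPM in the higher station and no overlap of fish, list members with an unadjusted p under 0.05, the 3 most abundant members of each list and the candidates of the study. A few names that met this rule are not reported here. The qPCR was not analysed here.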

Additional observations from a re-analysis of the deposited data

How the results depend on the processing

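With 6 fish and with 5 fish the count of names called was 0 under edgeR with RLE factors, without a filter, with a filter of 1 CPM in 2 fish, with the robust test, with all stations in the fit, without a minimum fold, for sums per assembled gene and for single transcripts, and under total-count scaling, which was added after seeing the data. It was 0 to 0 when each fish was left out in turn. DESeq2 gave 12 names with 6 fish and 42 with 5, and limma voom with sample weights gave 1 with 6 fish, where station C replicate 2 had a weight of 0.0850. The cause of these differences was not tested. Fish of the same number share no stated origin, and the correlations of their deviations (0.138, -0.0719 and -0.105) did not pair them; with the replicate number as a replicate block the count was 0 with 6 and 0 with 5 fish, and 99 and 456 names had an unadjusted p under 0.05 against 344 and 741. Of 145 names examined singly, 21 had opposite signs with 6 and with 5 fish. Among values with an unadjusted p under 0.05, direction reversed for TRFE (-0.34) and FETUB (-0.70) without station C replicate 2, for FETUB under limma voom (-0.18) and for the log2 fold change of GIMA4, 5 fish, which ran from -0.065 without station C replicate 1 to 4.86 without station C replicate 3. Total-count scaling moved the median log2 fold change of all names from 0.03 to -0.13 with 6 fish. Depth limits names near the floor, such as CASP9 at station C.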

Other observations

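Fish of station A share the station B fish as their reference and were not tested here. On plain CPM of all counts, CASP9 was at 3.79 to 6.27 at station B, at 0.227, 0.339 and 0.401 at station A and at 0.284, 0.0286 and 0.303 at station C. ACAD9 was at 0.773 to 1.33 at station B, at 4.72, 5.84 and 7.44 at station A and at 5.06, 4.20 and 11.04 at station C. IGM was at 359 to 405 at station B, at 679, 853 and 711 at station A and at 646, 543 and 812 at station C. S12A3 was at 2067 to 2405 at station B, and station A spread from 357 through 1904 to 2289. NR2C1 had no count in any fish of stations B and A.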
